A study of Mus musculus with 3 samples.

Results

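Acute phase response genes were followed in mouse livers that expressed human YAP. The set held 10 genes that code for secreted proteins of the hepatic response to injury and inflammation, namely Saa1, Saa2, Saa3, Lcn2, Orm1, Orm2, Hp, Hpx, Apcs and Hamp. The genes were chosen by name and not by their values, and each had 1 probe and 1 spot on the array, so the set was 10 of 55681 probes and 10 of the 13626 genes measured on all arrays. All 10 were well above background on every array, no member spot was marked as an outlier, and none was saturated, so no member was lost to a filter on low values.

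Gene expression was profiled on 3 one-colour arrays, with 1 liver sample each for the wild-type form of YAP (WT), the mutant 1SA and the mutant 2SA, taken at 2 days. YAP is a transcription coactivator that the kinases of the Hippo pathway hold in the cytoplasm, and 1SA and 2SA are mutants that the study uses as active forms. All groups were strain c57BL6/J, for which male mice of mainly 8 weeks were used, and all received the same kind of plasmid by hydrodynamic tail vein injection, in which a large volume is pushed rapidly into the tail vein. The plasmid drives human YAP from a hepatocyte-specific enhancer of Afp and a minimal albumin promoter, and it reaches only part of the hepatocytes, so each array reports transfected and untransfected cells together. Whether an array held the RNA of 1 animal or of several is not in the labels, and the WT title alone bears a number, 2. A liver without injection or without YAP was not analysed here, so all differences are between injected livers. The transgene is human, so the mouse Yap1 probe is no check of the labels. Ccn2 (Ctgf), which the study takes as a YAP target, had a log2 difference from WT of -0.44 in 1SA and 2.15 in 2SA, and 2 other known targets, named after their values were seen, had -1.52 and -0.02 (Ankrd1) and 0.59 and 1.89 (Ccn1). So on the array labelled 1SA, Ccn2 and Ankrd1 lay below WT and Ccn1 above it. By real-time PCR, the study reports a rise of this Ctgf transcript with its active mutants and not with the wild-type form. That report covers both mutants used here and the time of these arrays. The Ccn2 value on the array labelled 1SA went against that report, and the value on 2SA went the same way as it. The reason for the mismatch on 1SA was not tested.

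With 1 array per group there was no replicate check, no test was run, and a difference between the YAP forms cannot be told apart from a difference between the livers or arrays. The only errors available were technical. Spots of the same probe, printed 10 times for 399 probes, had a median SD of 0.07 on the log2 scale on each array, which makes an SD of 0.10 for a difference between arrays. A difference of 2 such SDs, 0.21 on the log2 scale, is called the repeat-spot limit below. Among repeated probes at or above the level of the dimmest member, the median SD was 0.052 in WT, 0.046 in 1SA and 0.045 in 2SA. Single probes there reached 0.195 in WT, and the limit was kept at that of all repeated probes. The scanner software gave its own error of 10% of the intensity for each member spot, which makes an SD of 0.20 for a difference, and double that, 0.41, is called the error-model limit. Intensities are given as multiples of the 75th percentile of the same array, which was 290.8 in the WT liver, 275.7 in the 1SA liver and 319.5 in 2SA. Levels of different probes were not set against each other, since probes differ in how brightly they bind, and a summed intensity over a list is weighted to its brightest probes. To check the tissue label, 12 hepatocyte markers were read, and all were measured on every array. Their summed scaled intensity was 5830 in the WT liver, 6195 in the 1SA liver and 5120 in 2SA.

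The acute phase response is the change in plasma proteins that follows infection or tissue damage. Interleukin-6 acts on hepatocytes through its receptor and STAT3, interleukin-1 acts through NF-kB, and C/EBP factors join both at the promoters of the responding genes. Serum amyloid A proteins travel on high-density lipoprotein, haptoglobin and hemopexin capture haemoglobin and haem, lipocalin-2 withholds iron from bacteria by binding their siderophores, and hepcidin, the product of Hamp, lowers plasma iron by removing the exporter ferroportin.

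The bases directly upstream of 6 members are shown because motifs of these factors can be read in them, and because they show how alike Saa1 and Saa2 are. They were taken from RefSeq (build GRCm38.p6), 250 bases before each gene's start, 5′ to 3′ on the gene's strand. Promoters of 8 of the 10 members were matched, and those of Orm1 and Hp were not. Capitals mark matches on either strand to the STAT motif TTCNNNGAA, the C/EBP motif TTNNGNAA, the TATA box TATAAA and the BMP response element GGCGCC. NF-kB was searched by its consensus.
Saa1, chr7:46742981-46743230, minus strand: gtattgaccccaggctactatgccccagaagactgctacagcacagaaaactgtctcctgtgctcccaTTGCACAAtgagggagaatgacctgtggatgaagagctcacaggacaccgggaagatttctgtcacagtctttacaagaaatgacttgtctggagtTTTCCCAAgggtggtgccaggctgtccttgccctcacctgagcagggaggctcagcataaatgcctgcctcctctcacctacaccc
Saa2, chr7:46751583-46751832, plus strand: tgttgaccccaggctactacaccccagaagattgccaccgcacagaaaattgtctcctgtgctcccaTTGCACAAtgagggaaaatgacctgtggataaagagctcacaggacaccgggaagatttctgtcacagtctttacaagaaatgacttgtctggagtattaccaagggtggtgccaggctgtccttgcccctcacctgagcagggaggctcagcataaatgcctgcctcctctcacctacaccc
Saa3, chr7:46715677-46715926, minus strand: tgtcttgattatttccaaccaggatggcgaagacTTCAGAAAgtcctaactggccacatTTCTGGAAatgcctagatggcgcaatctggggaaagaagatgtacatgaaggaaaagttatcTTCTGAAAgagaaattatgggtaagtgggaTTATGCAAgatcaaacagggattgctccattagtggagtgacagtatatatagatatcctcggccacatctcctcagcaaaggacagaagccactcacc
Lcn2, chr2:32387740-32387989, minus strand: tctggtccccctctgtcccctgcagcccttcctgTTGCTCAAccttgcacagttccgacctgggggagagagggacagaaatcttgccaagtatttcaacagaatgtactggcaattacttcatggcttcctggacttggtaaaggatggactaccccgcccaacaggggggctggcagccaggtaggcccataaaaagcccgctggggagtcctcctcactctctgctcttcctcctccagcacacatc
Orm2, chr4:63362199-63362448, plus strand: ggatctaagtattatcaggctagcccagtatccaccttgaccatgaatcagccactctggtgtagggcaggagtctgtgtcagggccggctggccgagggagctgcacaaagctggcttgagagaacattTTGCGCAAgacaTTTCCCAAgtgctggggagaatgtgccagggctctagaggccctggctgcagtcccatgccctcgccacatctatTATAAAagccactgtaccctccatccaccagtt
Hamp, chr7:30944030-30944279, minus strand: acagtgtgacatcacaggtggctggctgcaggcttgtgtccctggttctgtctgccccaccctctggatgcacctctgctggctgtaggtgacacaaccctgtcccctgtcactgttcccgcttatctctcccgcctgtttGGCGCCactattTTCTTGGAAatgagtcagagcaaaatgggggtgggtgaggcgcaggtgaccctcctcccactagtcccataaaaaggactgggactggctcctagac

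The C/EBP motif was present in 6 of the 8 matched promoters, beside 36.8% of 32851 promoters of the same length, and no matches of different motifs overlapped. It lay in Saa1 at 182 to 175 and 86 to 79 bases before the start, in Saa2 at 183 to 176, in Saa3 at 4 places between 216 and 92, in Lcn2 at 216 to 209, in Orm2 at 120 to 113 and 108 to 101, and in Hpx, whose bases are not shown, at 200 to 193 and 73 to 66. The STAT motif was in 2 of 8, beside 7.02% of all promoters. In Hamp it lay at 97 to 89 bases before the start, next to the BMP element at 109 to 104, an element that 1 of 8 members and 9.59% of all promoters held. The second was Apcs, with the STAT motif at 244 to 236. The exact letters TATAAA were in Orm2 alone among the 8, beside 12.4% of all promoters, and the NF-kB consensus was in none, beside 3.9%. Other forms of the TATA box were not searched, so the other members are not said to lack one. A match is a description of letters and no measure of binding. The upstream bases of Saa1 and Saa2 were 94.8% identical over their alignment, with 238 identical bases, 11 mismatches and 2 gaps. Saa3 was 48.9% identical to Saa1 and 47.9% to Saa2.

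No member differed 2-fold between any 2 arrays. Over all measured genes, 0.727% passed 2-fold upward and 1.14% downward in 1SA against WT. In 2SA against WT these shares were 1.12% and 0.543%, and in 2SA against 1SA they were 2.47% and 1.12%. Within that range the members took different orders over the arrays. Lcn2 was highest in 1SA and lowest in 2SA, Saa3 was highest in 2SA, Hamp was highest in WT, and Hp and Hpx lay within the repeat-spot limit on all arrays.

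**Figure D1:**
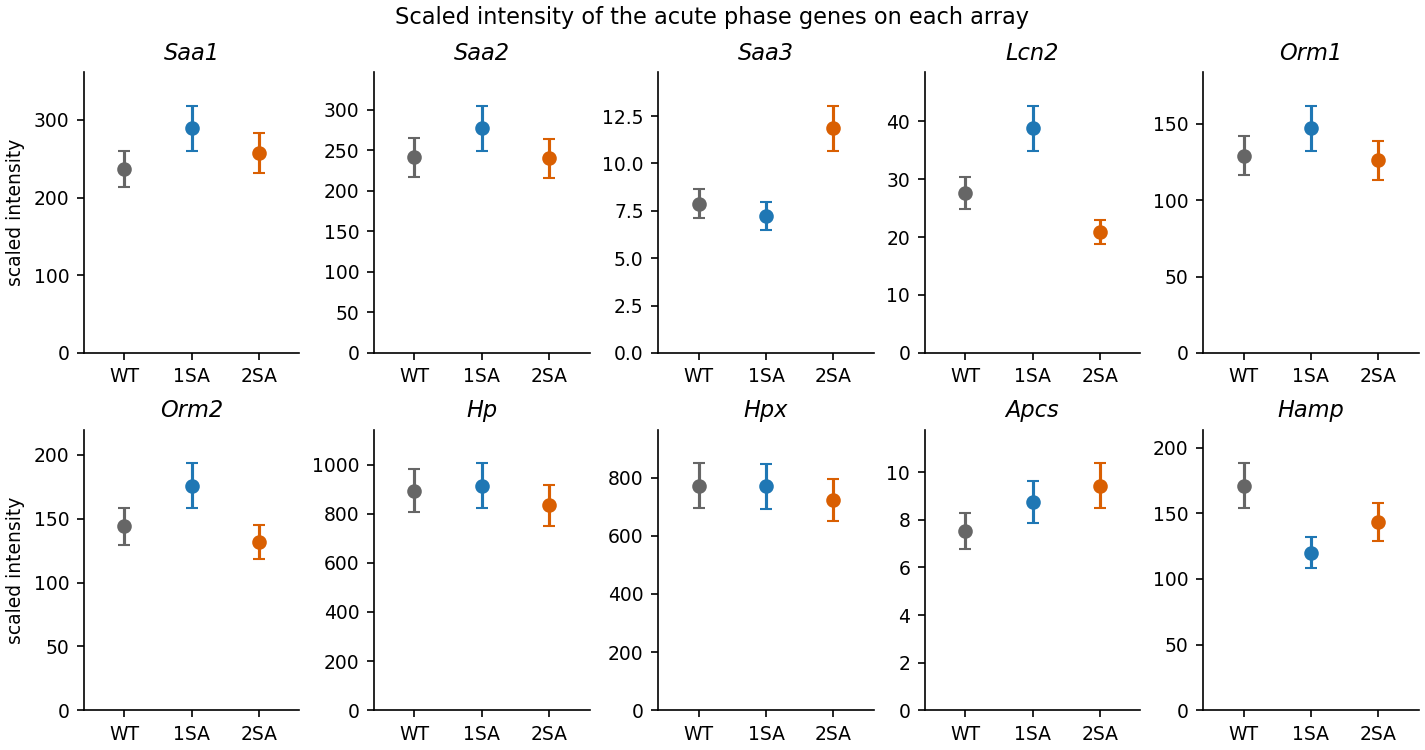
Scaled intensity (multiple of the array's 75th percentile) of each of the 10 acute phase genes on the WT, 1SA and 2SA arrays, 1 point per array, with the scanner software's own error of 10% as bars and each vertical axis starting at 0. Lcn2 is highest in 1SA at 38.7 and lowest in 2SA at 20.9, Saa3 is highest in 2SA at 11.9, and Hamp is highest in WT at 171.

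The serum amyloid A genes are neighbours on chromosome 7 in the order Saa3, Saa4, Saa1, Saa2. Saa1 and Saa2 are the acute phase forms made by hepatocytes. Saa1 (NM_009117) had a scaled intensity of 237 in the WT liver, 289 in the 1SA liver and 257 in 2SA. It was 1.22-fold higher in 1SA than WT, a log2 difference of 0.29, beyond the repeat-spot limit and within the error-model limit. The log2 difference of 2SA from WT was 0.12 and that of 2SA from 1SA was -0.17, both within the repeat-spot limit. Saa2 (NM_011314) was at 241 in the WT liver, 277 in the 1SA liver and 239.9 in 2SA, with log2 differences from WT of 0.20 in 1SA and -0.01 in 2SA, a value whose sign turned under other scalings. The gap between 2SA and 1SA was -0.21, just inside the limit. Both genes were thus brightest on 1SA, but neither had neighbouring arrays that could be told apart. The gene table lists Saa2 among the older names of Saa1 and Saa1 among those of Saa2, and binding of RNA from 1 copy to the other's probe was not tested.

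Saa3 differed from its neighbours. It is the form of serum amyloid A that macrophages and adipocytes make as well as liver. Saa3 (NM_011315) had a scaled intensity of 7.89 in the WT liver, 7.23 in the 1SA liver and 11.9 in 2SA. WT and 1SA were close, with a log2 difference of -0.13, and 2SA stood above both. Saa3 was 1.5-fold higher in 2SA than WT (log2 difference 0.59) and 1.64-fold higher in 2SA than 1SA (0.71), both beyond the error-model limit. Of all measured genes, 96.3% had a lower difference between 2SA and WT and 95% a lower difference between 2SA and 1SA. Its neighbour Saa4, a constitutive form, went the other way across the mutants, with 14.9 in the WT liver, 22 in the 1SA liver and 14.6 in 2SA. Saa4 was 0.56 higher in 1SA than WT on the log2 scale, and 2SA against 1SA was -0.60.

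Because Saa3 and Lcn2 are also made by leukocytes, macrophages or fat, the markers of those cells were read beside them. In a bulk liver sample, fewer cells of a type and less RNA per cell cannot be told apart. The 10 Kupffer cell markers summed to a scaled intensity of 259 in the WT liver, 203 in the 1SA liver and 156 in 2SA, and against WT their median log2 difference was -0.10 for 1SA and -0.69 for 2SA. The Kupffer cell lectin Clec4f was at 10.9 in the WT liver, 14.9 in the 1SA liver and 3.69 in 2SA, and the scavenger receptor Marco was at 52.5, 22.7 and 17.4. Cd5l made up the largest part of the sum, at 115, 86.1 and 64.4. In 2SA against WT 9 of the 10 markers were below 0, with Csf1r at only -0.006, and C6 was above at 0.12. Adgre1 was lowest on 1SA, at 5.69 in the WT liver, 4.06 in the 1SA liver and 5.10 in 2SA. As a sum, but not marker by marker, the list was dimmest on 2SA, the array on which Saa3 was brightest. Of 16 neutrophil and monocyte markers, 14 had a probe and 8 were measured on all arrays, with sums of 137 in the WT liver, 136 in the 1SA liver and 139 in 2SA. Csf3r made up most of that sum, at 125, 121 and 125, and single markers differed far more. Chil3 was -1.13 in 1SA and 1.24 in 2SA against WT on the log2 scale, the order of Saa3, Ccr2 was 2.33 and 0.85, and S100a8 was 0.23 and 0.44. The list's medians were 0.08 in 1SA and 0.09 in 2SA against WT, and without the filter on dim probes the former turned to -0.07. The neutrophil granule genes Ngp, Mmp8 and Mmp9 and the receptor Cxcr2 were not well above background on any array. Ltf and Mpo were so on 2SA only, at a low 0.057 and 0.052, and this is not read as a difference. Of 7 adipocyte markers 3 were measured, and Adipoq, Lep, Plin1 and Retn were not well above background anywhere. Fabp4 was highest in 2SA, at 8.40 in the WT liver, 7.08 in the 1SA liver and 10.06 in 2SA, while Cidec and Cfd were highest in WT. The 10 sinusoidal endothelial markers summed to 93.1 in the WT liver, 95.1 in the 1SA liver and 76.8 in 2SA. Their median in 2SA against WT was -0.05, with 5 of 10 above 0, and it turned to 0.0036 with normexp background correction. Clec4g (-0.59) and Clec1b (-0.74) were lower, and Lyve1 (0.37), Pecam1 (0.35) and Flt4 (0.33) were higher. The part of these cells in the Saa3 and Lcn2 values was not tested.

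Lcn2 had the widest spread of the 10 members. Lcn2 (NM_008491) was at 27.6 in the WT liver, 38.7 in the 1SA liver and 20.9 in 2SA, and each array was beyond the repeat-spot limit from the next. It was 1.4-fold higher in 1SA than WT, a log2 difference of 0.49, and 95.9% of measured genes had a lower one. The 2SA array had 0.756 times the WT level (-0.40) and 0.539 times the 1SA level (-0.89). Only 1.48% of measured genes lay further down in 2SA against 1SA. The differences of 1SA from WT and of 2SA from 1SA were beyond the error-model limit, and that of 2SA from WT was just inside it. The genes with the pattern nearest to Lcn2 over the 3 arrays, by Euclidean distance over both log2 differences from WT, were Ngfr at 0.013, Drp2 at 0.021, Slc13a4 at 0.023, Noxred1 at 0.031 and Cmya5 at 0.045. With 3 arrays such likeness rests on 2 numbers per gene.

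Orm1 and Orm2 code for alpha-1-acid glycoprotein, a plasma carrier of lipids and drugs, and flank Orm3 on chromosome 4. Orm1 (NM_008768) was at 129 in the WT liver, 147 in the 1SA liver and 126 in 2SA. Its log2 differences from WT were 0.19 in 1SA and -0.04 in 2SA, and 2SA against 1SA was -0.22, the one difference beyond the repeat-spot limit. Orm2 (NM_011016) was at 144 in the WT liver, 176 in the 1SA liver and 132 in 2SA. It was 0.29 higher in 1SA than WT, -0.13 apart in 2SA, and 2SA against 1SA was -0.42, beyond the error-model limit. Orm3, which is no member, was at 7.36 in the WT liver, 11.0 in the 1SA liver and 6.36 in 2SA, with log2 differences from WT of 0.58 and -0.21. All 3 genes were therefore ordered 1SA, WT, 2SA, but only for Orm3 was each array beyond the repeat-spot limit from the next. For Orm1 both neighbouring gaps were within that limit, and for Orm2 the gap between WT and 2SA was. Binding of RNA from 1 copy to the probe of another was not tested.

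Haptoglobin and hemopexin stayed within the repeat-spot limit. Hp (NM_017370), which captures free haemoglobin, was at 895 in the WT liver, 915 in the 1SA liver and 835 in 2SA. Hpx (NM_017371), which captures free haem, was at 773 in the WT liver, 770.5 in the 1SA liver and 723 in 2SA. Their log2 differences ranged from -0.13 to 0.03. The signs of these small differences turned under other scalings and are not read. Red blood cell genes differed more than either gene on the same arrays. All 7 measured were higher in both mutants than in WT, with a median log2 difference of 0.86 in 1SA and 0.45 in 2SA, and their summed scaled intensity was 203 in the WT liver, 346 in the 1SA liver and 270.0 in 2SA. Whether blood left in the tissue has a part in any member's value was not tested.

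Apcs codes for serum amyloid P, the pentraxin that serves as a main acute phase protein in mice. Apcs (NM_011318) was at 7.52 in the WT liver, 8.75 in the 1SA liver and 9.44 in 2SA. It was the one member higher than WT beyond the repeat-spot limit in both mutants, by 0.22 in 1SA and 0.33 in 2SA on the log2 scale, and both values were within the error-model limit. The mutants were 0.11 apart. The pentraxin Crp lies next to Apcs on chromosome 1 and was ordered otherwise, with 19.5 in the WT liver, 22.4 in the 1SA liver and 16.8 in 2SA.

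Hamp was the one member lower than WT in both mutants beyond the repeat-spot limit. Hamp (NM_032541) was at 171 in the WT liver, 120.0 in the 1SA liver and 143 in 2SA. In 1SA it had 0.702 times the WT level, a log2 difference of -0.51 that was beyond the error-model limit, and 6.13% of measured genes had a lower one. In 2SA the difference from WT was -0.25, and 2SA stood 0.26 above 1SA, so all neighbours in the order were beyond the repeat-spot limit. Its copy Hamp2, next to it on chromosome 7, was at 33.1 in the WT liver, 35.8 in the 1SA liver and 34.7 in 2SA, all within the limit of each other.

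**Figure D2:**
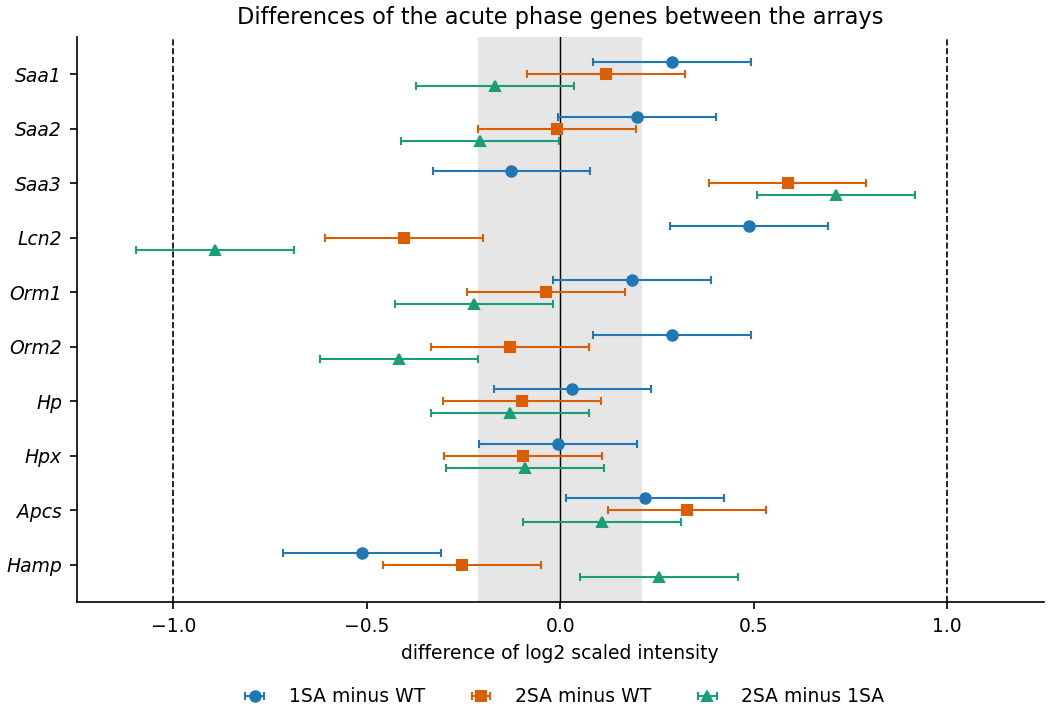
Difference of log2 scaled intensity for each of the 10 acute phase genes in 1SA minus WT (circles), 2SA minus WT (squares) and 2SA minus 1SA (triangles), with 1 error-model SD (0.20) as bars, the repeat-spot limit (0.21 either side of 0) as a grey band and 2-fold as dashed lines. All points lie inside 2-fold, the widest being Lcn2 at -0.89 and Saa3 at 0.71, both in 2SA minus 1SA.

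Counted over the set, 4 members were beyond the repeat-spot limit higher in 1SA than WT (Saa1, Lcn2, Orm2 and Apcs), beside 15.9% of all genes, and 1 was lower (Hamp), beside 18.9%. In 2SA against WT 2 were higher (Saa3 and Apcs), beside 15.4%, and 2 lower (Lcn2 and Hamp), beside 19.1%. In 2SA against 1SA 2 were higher (Saa3 and Hamp), beside 21.1%, and 3 lower (Lcn2, Orm1 and Orm2), beside 23.8%. Beyond the error-model limit were Lcn2 higher in 1SA than WT (5.72% of all genes) and Hamp lower (8.81%). In 2SA against WT Saa3 alone was higher (6.88%) and no member lower (6.82%). In 2SA against 1SA Saa3 was higher (10.8%), and Lcn2 and Orm2 were lower (9.17%). Among the 3129 genes at or above the mean level of the dimmest member, a background added after the data were seen, 15.5% were beyond the repeat-spot limit higher and 8.15% lower in 1SA against WT. For 2SA against WT those shares were 7.25% and 10.9%, and for 2SA against 1SA 10.2% and 25.7%. With 10 genes such shares are coarse, and the set is not said to stand apart.

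The smaller of these calls depended on the processing. Under at least 1 alternative Saa1 (0.18), Orm2 (0.20) and Apcs (0.17) came within the repeat-spot limit in 1SA against WT, as did Hamp (-0.21) in 2SA against WT and Orm1 (-0.09) in 2SA against 1SA. Saa2 and Orm1 passed it under others, at 0.23 and 0.22 in 1SA against WT, and so did Saa2 at -0.23 in 2SA against 1SA. Orm2 in 2SA against 1SA came within the error-model limit, at -0.28. All calls of Lcn2 and Saa3, that of Apcs in 2SA and that of Hamp in 1SA against WT held under each alternative. Only some alternatives could change them. Each member had 1 unmarked spot well above background, so the filters, mean of probes and kept flagged spots left its values unchanged. The array median and the matrix shift all genes of an array alike. Quantile normalisation and normexp alone could move members against one another.

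The middle of the set leaned up in 1SA and down in 2SA by less than the repeat-spot limit. The members' median log2 difference was 0.19 in 1SA against WT, -0.07 in 2SA against WT and -0.15 in 2SA against 1SA. Over all measured genes these medians were -0.0017, -0.03 and -0.03. In all, 7 of 10 members were above 0 in 1SA against WT, 3 in 2SA against WT and 3 in 2SA against 1SA, beside 49.7%, 43.6% and 45.6% of all genes. The members are bright, and bright genes as a whole leaned the same way. Among the same 3129 bright genes, 61.3%, 37.6% and 34.2% were above 0. The spread of the members was an SD of 0.28, 0.29 and 0.42 in the 3 comparisons, beside 0.34, 0.33 and 0.42 over all genes. The 2 comparisons with WT share that array, and 6 members were highest in 1SA and 6 lowest in 2SA, beside 38.5% and 42.1% of all genes. Only 2 of the former and 1 of the latter stood beyond the repeat-spot limit from the next array. Under quantile normalisation the medians were 0.08, 0.05 and 0.06, so the lean in 2SA turned sign.

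**Figure D3:**
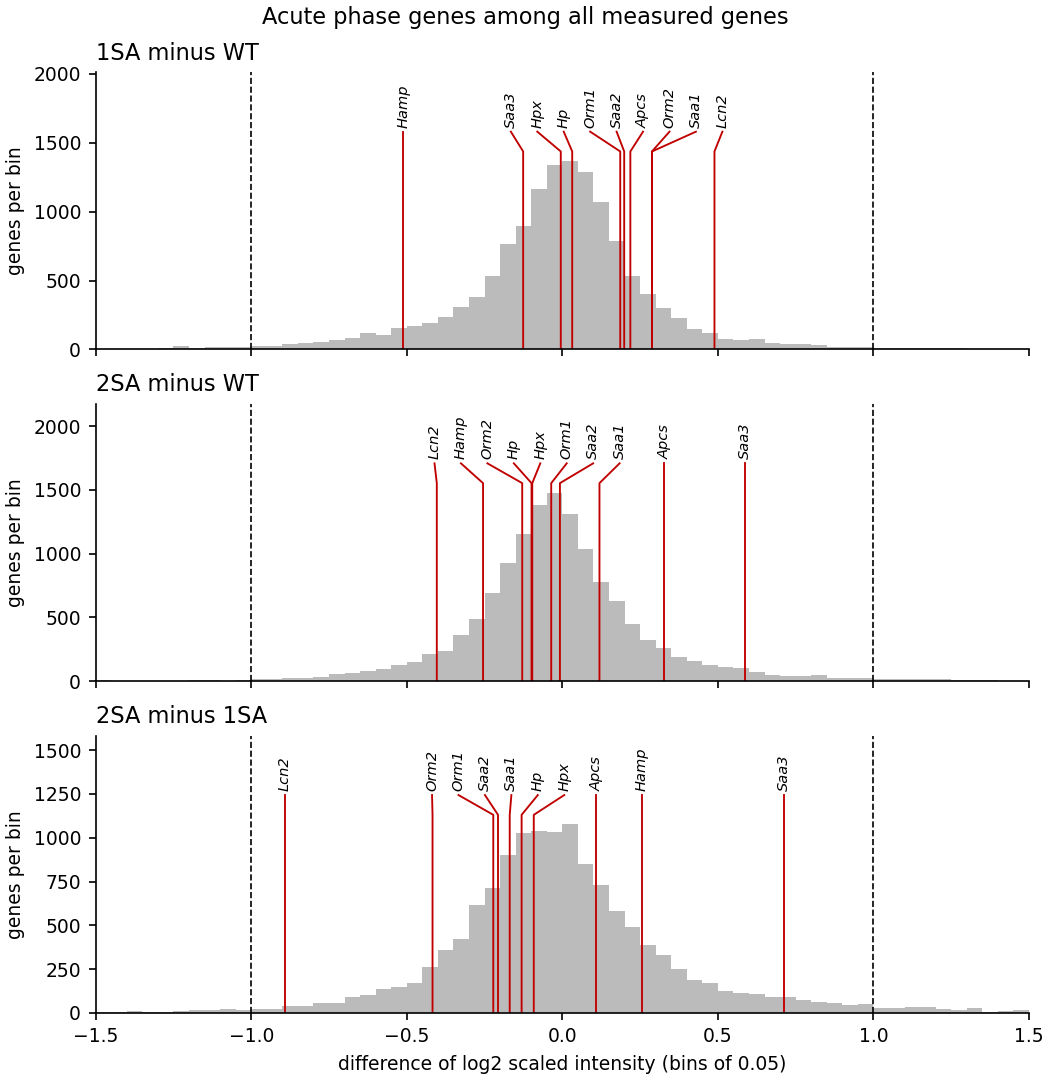
Number of genes per bin of 0.05 in log2 difference for all 13626 measured genes (grey), with each acute phase gene as a red line leading to its name and 2-fold as dashed lines, for 1SA minus WT, 2SA minus WT and 2SA minus 1SA. The axis ends at 1.5 either side, which leaves out 64, 64 and 146 genes, and the members farthest out are Lcn2 and Saa3 in the lowest panel, with 1.48% of genes below Lcn2 and 95% below Saa3.

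Other acute phase proteins gave a wider view of the programme. Of 32 genes listed as positive, 29 were measured on all arrays. The list is broad. It holds Saa4, a constitutive form, and receptor genes such as Ghr and Cd14, so it is no strict set of positive acute phase proteins. Of the 29 measured, 24 were above 0 in 1SA against WT, 5 in 2SA against WT and 4 in 2SA against 1SA. The shares above 0 were 49.7%, 43.6% and 45.6% over all genes, and 61.3%, 37.6% and 34.2% among the 3129 bright genes. The medians of the 29 were 0.15, -0.08 and -0.24, the same order of signs as the members'. Under quantile normalisation the last of these medians was -0.027. Only metallothionein Mt1, a zinc-binding stress protein, was 2-fold apart, at 323 in the WT liver, 380.0 in the 1SA liver and 155 in 2SA, a log2 difference of -1.06 in 2SA against WT. The 17 negative acute phase proteins, which plasma loses in inflammation, leaned the same way as the positive ones. Their medians were 0.06 in 1SA against WT, -0.16 in 2SA against WT and -0.23 in 2SA against 1SA, and none was 2-fold apart. Albumin (Alb) was at 1279 in the WT liver, 1369 in the 1SA liver and 1045 in 2SA. Hepatocyte markers as a list had medians of 0.09, -0.20 and -0.27, and 4 of the 12 markers (Alb, Apoa1, Ttr and Serpina1c) are also in the lists of acute phase proteins. Under quantile normalisation the 1SA against WT medians of the negative proteins and of the hepatocyte markers turned to -0.023 and -0.015.

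The signals upstream were read next. Il6, the main inducing cytokine, was not well above background on any array, nor were Osm and Il22ra1. Tnf, Il11 and Il1r2 were well above background on 2SA only and Lif on 1SA only, all at low signal. More probes passed on 2SA (30784) than on WT (28972) or 1SA (29705). Il11 was at 0.0424 in the WT liver and 0.0410 in 2SA, Il1r2 at 0.0346 and 0.0421, and Tnf at 0.0506 and 0.116. Passing on 1 array alone is therefore not read as a difference. Il1b was measured everywhere, and its log2 differences from WT were 0.06 in 1SA and -0.38 in 2SA. The interleukin-6 receptor Il6ra was at 13.2 in the WT liver, 12.6 in the 1SA liver and 13.2 in 2SA, and its signalling partner Il6st was at 6.79, 6.28 and 5.58. Of 13 measured cytokines and receptors none was 2-fold apart, and their medians were 0.05, -0.01 and -0.17.

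Inside the cell, 10 of the 28 signal transducers and transcription factors were ordered 1SA, WT, 2SA from high to low as Lcn2 was (35.7%), beside 26.1% of all genes. Other lists held this order more often, with 75% of hepatocyte markers, 70.6% of negative acute phase proteins and 38.5% of cytokines and receptors. Among Kupffer cell markers it was 20%, so the order is not particular to the regulators. Socs3, the feedback inhibitor that STAT3 switches on, was at 2.77 in the WT liver, 5.96 in the 1SA liver and 2.22 in 2SA. It was 1.11 higher in 1SA than WT on the log2 scale, and 2SA against 1SA was -1.42, both past 2-fold. Cebpd, an inducible C/EBP factor, was at 6.61 in the WT liver, 9.81 in the 1SA liver and 5.02 in 2SA. Bcl3, a nuclear partner of NF-kB that was named after its values were seen, was at 9.98, 14.3 and 8.10. Stat3 itself was 0.40 higher in 1SA than WT by both of its probes, and Cebpb was 0.36 higher. In 2SA Stat3 differed from WT by 0.16 and -0.04 by its 2 probes and Cebpb by 0.01. For Cebpb and for both Stat3 probes, WT and 2SA were thus within the repeat-spot limit of each other. The kinase gene Pim1, another STAT target, was at 0.251 in the WT liver, 0.305 in the 1SA liver and 0.8 in 2SA, so it was highest in 2SA as Saa3 was. The hepatocyte factor Onecut1 was again ordered 1SA, WT, 2SA, at 1.12 in the WT liver, 1.47 in the 1SA liver and 0.5 in 2SA. Of the 28 signal transducers and transcription factors, Socs3 alone was 2-fold higher in 1SA than WT and none was 2-fold lower. In 2SA against WT Pim1 was higher and Onecut1 lower, and the medians of the list were 0.07, -0.04 and -0.03.

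**Figure D4:**
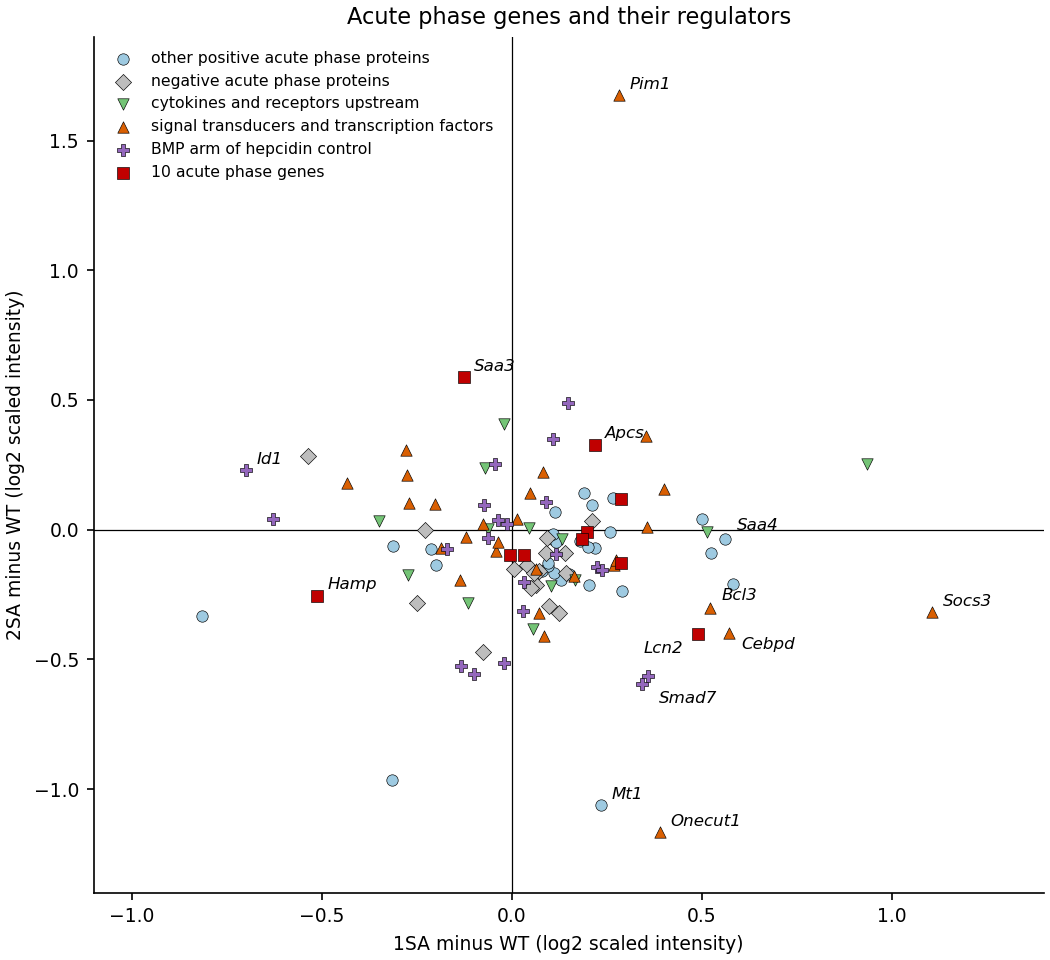
Log2 difference from WT in 1SA (horizontal axis) and in 2SA (vertical axis) for the 10 acute phase genes (red squares) and the measured genes of 5 related lists, 1 point per gene. Lcn2 lies near Cebpd and Bcl3 at the lower right, Socs3 further right, Saa3 at the upper left and Hamp at the lower left, and both axes share the WT array.

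For hepcidin, the BMP arm is the second known input. Bmp6, its ligand, was at 0.362 in the WT liver, 0.347 in the 1SA liver and 0.354 in 2SA. Id1, a gene that BMP signalling switches on together with Hamp, was at 4.31 in the WT liver, 2.66 in the 1SA liver and 5.06 in 2SA, so it was lowest in 1SA as Hamp was. Id3 of the same list was at 11.4, 14.6 and 7.70, the reverse of Id1. Id2 was at 19.3, 17.2 and 18.4, all within the repeat-spot limit of each other. The inhibitor Smad7 was at 0.786, 0.997 and 0.520, also the reverse of Id1. Transferrin receptor Tfr2, an iron sensor upstream of Hamp, was at 73.9 in the WT liver, 86.3 in the 1SA liver and 66.8 in 2SA. Of 21 measured genes of this arm none was 2-fold apart, and the medians were -0.01, -0.07 and 0.02. Slc40a1, the ferroportin that hepcidin removes as a protein, was at 30.7 in the WT liver, 22.4 in the 1SA liver and 24.2 in 2SA. Among 16 iron and haem handling genes none was 2-fold apart, with medians of 0.03, -0.18 and -0.25.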

How the data were processed

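Labelled RNA of 3 mouse liver samples was measured on one-colour Agilent arrays, 1 per group. The authors processed the scans with Agilent Feature Extraction 10.10.1.1 per the file headers, and the deposited intensity of a spot is background-subtracted and not scaled between arrays. The authors' matrix held these intensities rescaled by array, by a median factor of 3.02 in WT, 3.08 in 1SA and 2.81 in 2SA. It was used only as an alternative. Here spots marked as outliers were left out, the spots of each probe were averaged as log2 intensities and scaled to the 75th percentile of their array. A probe was measured where at least 50% of its spots were well above background. Of 55681 probes, 26762 were named through RefSeq accessions in a gene table of GRCm38.p6 (names only, since the arrays were designed on mm9), giving 20284 symbols. A gene took its brightest probe. Differences were called from 2-fold on. The number of arrays limits the precision.

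The members, the 12 other gene lists and the rule for named genes were chosen with earlier results of these data known. The rule named all members, up to 5 genes per list that were at least 2-fold apart, and 18 regulators, paralogs and readouts whatever their values. Alternatives tried were the array median, quantile normalisation, normexp (limma, offset 50, run on the median spot and background columns), the matrix, the filter on dim probes, the mean of probes, flagged spots kept and a 3-fold threshold. The computation was tested on simulated data. Python 3.11.15, numpy 2.4.6, pandas 2.3.3, matplotlib 3.10.9, R 4.3.3 and limma 3.58.1 were used.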

Additional observations from a re-analysis of the deposited data

Results flagged for a closer look

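The members, the genes named by rule and Bcl3 were searched for values on opposite sides of WT in the 2 mutants. In 11 of them both values were beyond the repeat-spot limit. The rule took some genes for being 2-fold apart, Bcl3 was added after its values were seen, and no share over all genes was counted. Ccn2, Id3 and the genes nearest to Lcn2 also met this and were not in the search. Each group held 1 array, so the difference between the mutants was not tested. Under other processing 4 of the 11 came within that limit on 1 side, Mt1 in 1SA (0.095), Id1 in 2SA (0.18), Socs3 in 2SA (-0.20) and Orm3 in 2SA (-0.18). The one member was Lcn2, with log2 differences from WT of 0.49 in 1SA and -0.40 in 2SA. Of the other acute phase proteins, Orm3 had 0.58 and -0.21, the latter at the limit itself, and Mt1 had 0.24 and -1.06. Of the regulators, Socs3 had 1.11 and -0.32, Cebpd had 0.57 and -0.40, Bcl3 had 0.52 and -0.30, and Onecut1 had 0.39 and -1.17. In the BMP arm, Smad7 had 0.34 and -0.60, while Id1 had the opposite signs with -0.70 and 0.23. Of the cell type markers, the Kupffer cell gene Clec4f had 0.45 and -1.56, and the myeloid gene Chil3 had -1.13 and 1.24.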

How the results depend on the processing

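No paired analysis was possible because WT, 1SA and 2SA had 1 array apiece. For the same reason no array could be left out and no slide could be fitted as a block. No difference of a named gene and no list median beyond the repeat-spot limit changed sign under any alternative. Under each of them 0 members were 2-fold apart, which fixed the count at 3-fold at 0. For the members, only quantile normalisation and normexp did more than leave values unchanged or shift a whole array. Lcn2 kept its signs, with log2 differences between 0.43 and 0.52 in 1SA against WT, between -0.40 and -0.37 in 2SA against WT and between -0.91 and -0.81 in 2SA against 1SA. Saa3 stayed between 0.58 and 0.62 in 2SA against WT, and Hamp between -0.59 and -0.48 in 1SA against WT. Only differences of Hp, Hpx and Saa2, all within the repeat-spot limit, changed sign among the members. In all, 12 of the member differences moved by more than 0.10, each under quantile normalisation. The cause of the changes was not tested. No depth is given for arrays, and all members were far above background.

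Under quantile normalisation the members' medians were 0.083 in 1SA against WT, 0.046 in 2SA against WT and 0.057 in 2SA against 1SA. Those of the hepatocyte markers were -0.015, -0.090 and -0.074 in the same order. In 2SA against 1SA the median of the negative acute phase proteins was -0.026 (-0.049 in 2SA against WT), of the other positive ones -0.027 and of the iron and haem genes -0.062. No red blood cell gene (0) was then 2-fold higher in 1SA than WT, as with the matrix values (0).

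Without the filter on dim probes, more genes of low signal entered. Medians were -0.067 in 1SA against WT and 0.082 in 2SA against 1SA for cytokines and receptors, -0.097 in 2SA against 1SA for the BMP arm, -0.52, -0.48 and -0.28 for adipocyte markers in 1SA against WT, 2SA against WT and 2SA against 1SA, and -0.072, 0.29 and 0.13 for neutrophil and monocyte markers. For cytokines and receptors 1 gene was then 2-fold higher and 2 lower in 1SA against WT, 1 and 1 in 2SA against WT, and 4 and 1 in 2SA against 1SA. For the BMP arm 1 was higher in 1SA against WT and 1 lower in 2SA against 1SA, for neutrophils and monocytes 3 were higher in 2SA against either array and 2 lower in 1SA against WT, and for adipocytes 2 were lower in 1SA against WT and 1 each way in 2SA against 1SA.

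With the stricter filter, which kept fewer genes, the 2SA against 1SA medians were -0.027 for iron and haem genes, 0.25 for adipocyte, 0.049 for neutrophil and monocyte and -0.16 for endothelial markers, and -0.23 for signal transducers, of which 0 were 2-fold higher in 2SA against WT or 1SA. The Kupffer median in 2SA against WT was -0.54, the adipocyte one -0.61 with 1 gene 2-fold lower, and the neutrophil and monocyte median in 1SA against WT was -0.049. With normexp the adipocyte medians were -0.31 in 1SA and -0.64 in 2SA against WT, with 1 gene 2-fold lower in 2SA. No neutrophil or monocyte gene (0) was then 2-fold lower in 1SA than WT, 2 Kupffer genes were lower in 2SA than 1SA, and of the signal transducers 0 were lower in 2SA than WT and 0 higher in 2SA than 1SA. With the matrix values 1 BMP gene was 2-fold higher in 2SA than 1SA and 2 adipocyte genes lower in 1SA than WT. With the mean of all probes the adipocyte medians were -1.23 in 2SA against WT and 0.14 in 2SA against 1SA.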

Other observations

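The marker lists read beside the members held further wide differences. The chemokine receptor gene Ccr2, which marks inflammatory monocytes, had a scaled intensity of 0.485 in the WT liver, 2.44 in the 1SA liver and 0.873 in 2SA, a log2 difference of 2.33 in 1SA against WT. The myeloid gene Chil3 was at 1.51 in the WT liver, 0.693 in the 1SA liver and 3.58 in 2SA, so Ccr2 and Chil3 were highest on different arrays. The lipid droplet gene Cidec was at 2.18 in the WT liver, 0.783 in the 1SA liver and 0.780 in 2SA, and Cfd, the adipocyte gene of complement factor D, was at 0.176, 0.0908 and 0.0608, both highest on WT. The third measured marker of that list, Fabp4, was at 8.40, 7.08 and 10.06, highest on 2SA. The haemoglobin gene Hbb-bt was at 14.6 in the WT liver, 29.4 in the 1SA liver and 21.0 in 2SA.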
